A study of Mus musculus with 9 samples.

Results

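The unfolded protein response and the folding machinery of the secretory pathway were followed through 36 genes in activated hepatic stellate cells (aHSCs) of the mouse. The genes were taken by name, and 34 were found on the Illumina MouseWG-6 v2.0 bead array by the symbol in the deposited annotation. Manf and Ppp1r15a are carried there as Armet and Myd116 and were found by gene ID. The 36 genes had 61 of the 45281 gene probes (17 genes had 1 probe, 13 had 2 and 6 had 3). A probe was tested where it was detected on at least 3 of the 9 arrays, which left 47 member probes on 34 genes among 20573 probes in all. Canx was detected on 1 array and Derl1 on none, and neither was tested. A gene with several tested probes is represented by the brightest.

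All 9 samples came from WT1GFP/+ mice, in which 1 allele of the Wilms tumour gene carries a green fluorescent protein (GFP) reporter, and GFP brightness served to sort the cells by WT1 status. WT1-high (GFP high, replicates 1, 8 and 29) and WT1-intermediate (GFP low, replicates 1, 8 and 30) aHSCs were isolated from livers of male mice made fibrotic with intraperitoneal carbon tetrachloride. These 6 arrays came from 3 animals, so that WT1-high and WT1-intermediate arrays share animals. WT1-negative aHSCs (GFP negative, replicates 3, 11 and 14) were sorted after quiescent stellate cells had been activated on plastic for 7 days. WT1 status and origin (injured liver or culture dish) therefore change together in each comparison with WT1-negative cells and cannot be told apart.

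Proteins bound for secretion or for membranes enter the endoplasmic reticulum (ER) through the Sec61 translocon, are folded by chaperones and disulfide isomerases, and are returned to the cytosol for degradation when folding fails. A surplus of unfolded protein is sensed by IRE1 (Ern1), PERK (Eif2ak3) and ATF6. IRE1 splices the Xbp1 transcript, ATF6 is cut to release a transcription factor, and both routes raise chaperones and degradation factors. PERK phosphorylates eIF2, which slows translation but favours ATF4, a factor that raises genes of amino acid supply and the CHOP pathway (Ddit3) and is also reached by other kinases when amino acids are short. Stellate cells that become activated secrete much collagen and other matrix, a load that passes through this machinery.

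Several member genes carry sequence elements known from these routes in their promoters, and 7 promoters are printed here because the results below refer to their genes. Sequences are from RefSeq on GRCm38.p6 and run 250 bases up to the start of the gene, 5' to 3' on the strand of the gene. A promoter was matched for 31 of the 36 genes (32 promoters). Both strands were searched for the ER stress response element (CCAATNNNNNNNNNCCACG), read by ATF6 with NF-Y, for ERSE-II (ATTGGNCCACG), for TGACGTGG, a core bound by XBP1 and ATF6, and for TTGCATCA, a form of the amino acid response element bound by ATF4 with C/EBP partners. The stretch CCACG, or its reverse complement CGTGG, is part of the first 3 motifs. The ER stress response element stood in the promoters of 9 of 31 members (Hspa5, Hsp90b1, Calr, Canx, Dnajc3, Pdia6, Syvn1, Derl3 and Creld2), against 37 (0.113%) of 32851 promoters in all. ERSE-II was present in Herpud1 alone among the members and in 0.0304% of all promoters. TTGCATCA was present in Herpud1 and Chac1 and in 0.791% of all promoters, and TGACGTGG in no member and in 0.563% of all promoters. The members were chosen as genes of this response, so these shares describe them and are not a test.

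The windows are Hspa5 chr2:34771840-34772089 (plus strand), Hsp90b1 chr10:86705445-86705694 (minus strand), Pdia6 chr12:17266339-17266588 (plus strand), Creld2 chr15:88819396-88819645 (plus strand), Calr chr8:84846932-84847181 (minus strand), Herpud1 chr8:94386179-94386428 (plus strand) and Chac1 chr2:119350992-119351241 (plus strand). Capitals mark the fixed letters of the motifs. Hspa5, Pdia6 and Creld2 each hold 1 exact match to the ER stress response element and Hsp90b1 holds 2. Variants of the motif were not searched for and are not marked. Of the genes with this element, Hspa5, Hsp90b1, Dnajc3, Pdia6 and Creld2 were called higher in cells from fibrotic liver, Calr was called lower, Syvn1 and Derl3 were not called and Canx was not tested. Herpud1 holds ERSE-II and TTGCATCA, and Chac1 holds TTGCATCA.
Hspa5: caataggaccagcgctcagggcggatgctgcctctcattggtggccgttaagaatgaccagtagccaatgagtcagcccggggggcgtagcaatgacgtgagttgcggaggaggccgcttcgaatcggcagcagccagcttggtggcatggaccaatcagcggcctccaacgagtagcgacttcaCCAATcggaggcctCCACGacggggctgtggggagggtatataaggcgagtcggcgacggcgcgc
Hsp90b1: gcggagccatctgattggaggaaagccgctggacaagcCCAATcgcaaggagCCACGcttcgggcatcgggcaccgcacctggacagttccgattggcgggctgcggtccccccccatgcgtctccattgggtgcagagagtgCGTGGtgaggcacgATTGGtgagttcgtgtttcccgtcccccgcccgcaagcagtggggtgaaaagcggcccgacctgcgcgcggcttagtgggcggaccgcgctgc
Pdia6: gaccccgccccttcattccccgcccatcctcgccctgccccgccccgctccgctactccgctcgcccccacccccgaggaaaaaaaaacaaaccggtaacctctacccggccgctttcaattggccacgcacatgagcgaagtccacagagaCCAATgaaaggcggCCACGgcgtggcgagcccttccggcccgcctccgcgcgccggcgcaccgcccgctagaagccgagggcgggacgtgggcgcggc
Creld2: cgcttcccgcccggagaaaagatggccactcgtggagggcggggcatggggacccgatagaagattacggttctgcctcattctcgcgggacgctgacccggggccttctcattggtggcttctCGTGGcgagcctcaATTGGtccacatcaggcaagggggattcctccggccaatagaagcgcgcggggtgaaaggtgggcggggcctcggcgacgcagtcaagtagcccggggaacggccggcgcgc
Calr: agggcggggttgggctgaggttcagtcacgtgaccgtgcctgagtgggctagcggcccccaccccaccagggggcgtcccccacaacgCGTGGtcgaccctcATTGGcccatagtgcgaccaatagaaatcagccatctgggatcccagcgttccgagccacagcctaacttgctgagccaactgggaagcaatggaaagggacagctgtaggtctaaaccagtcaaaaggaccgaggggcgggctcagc
Herpud1: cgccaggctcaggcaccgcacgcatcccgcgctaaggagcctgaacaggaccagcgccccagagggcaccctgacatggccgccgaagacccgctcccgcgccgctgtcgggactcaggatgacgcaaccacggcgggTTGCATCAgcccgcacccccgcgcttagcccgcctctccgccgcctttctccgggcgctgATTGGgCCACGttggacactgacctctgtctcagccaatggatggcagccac
Chac1: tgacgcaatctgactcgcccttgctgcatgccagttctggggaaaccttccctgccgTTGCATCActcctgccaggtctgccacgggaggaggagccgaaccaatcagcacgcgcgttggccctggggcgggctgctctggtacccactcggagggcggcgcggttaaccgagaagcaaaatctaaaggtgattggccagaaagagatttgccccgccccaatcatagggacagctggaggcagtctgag

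Counted from the base before the start, the exact match in Hspa5 lies at bases 65 to 47, that in Pdia6 at 98 to 80 and that in Dnajc3 at 105 to 87. The exact matches in Hsp90b1 lie at 212 to 194 and, on the other strand, at 107 to 89. A match in letters is a description of the sequence, and no factor binding was measured here.

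Of the gene probes, 38.1% to 43.7% were detected per array. Of 15 stellate cell markers, 10 to 13 were detected on each array, but Gfap and Rgs5 were detected on none and Lrat on a single WT1-high array. All 9 mesothelial markers were detected on every WT1-positive array (mean log2 level 10.9 to 11.7), whereas 3 to 5 were detected on WT1-negative arrays (4.93 to 5.17). Transcripts of some other lineages also moved with origin. Hepatocyte markers had a mean log2 level of 5.79 to 7.00 on liver arrays and 5.10 to 5.18 on culture arrays, with Alb, Fabp1, Tat and Fgb detected on none. Markers of B and plasma cells, which are secretory cells, gave 5.70 to 6.02 and 4.40 to 4.50, with Ms4a1 and Tnfrsf17 detected on none. Macrophage, endothelial and cholangiocyte lists did not separate all liver from all culture arrays. Macrophage markers gave 7.58 to 7.91 in WT1-high, 9.53 to 9.83 in WT1-intermediate and 9.65 to 9.75 in WT1-negative cells. Against WT1-negative cells, 7 of 12 were lower and 2 higher in WT1-high, and 4 lower and 4 higher in WT1-intermediate cells. In the same order, endothelial markers gave 5.90 to 6.19, 6.52 to 6.72 and 6.09 to 6.41, and cholangiocyte markers 6.97 to 7.21, 7.04 to 7.45 and 6.43 to 7.06. Immediate early and dissociation stress genes gave 10.3 to 10.9 in liver cells and 8.58 to 8.90 in culture (10 of 12 higher in both comparisons), and cell cycle genes 4.60 to 5.40 and 7.50 to 7.76 (8 of 8 tested lower in both). The part of these differences in the results below was not tested. In a bulk sample, a change in the share of cells that express a gene cannot be told from a change of its level per cell.

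Most ER chaperones and all 4 disulfide isomerases were higher in WT1-positive cells of the fibrotic liver than in cultured WT1-negative cells, and 3 of 5 targets of the ATF4 arm were lower. Against WT1-negative cells, WT1-high cells had 16 members higher and 5 lower among 34 tested (limma, adjusted p under 0.05 over all probes), where 26.5% of all probes were called higher and 33.1% lower. WT1-intermediate cells had 15 higher and 5 lower, where 24.4% of all probes were higher and 33.6% lower. The median log2 difference of the members was 0.51 in the first comparison and 0.43 in the second, beside medians over all probes of -0.10 and -0.13. Groups did not overlap for 24 and 23 members, beside 68.4% and 65.5% of all probes. The 2 comparisons share their WT1-negative arrays, and 20 members were called in both. Arrays were also scaled to a common median instead of quantile normalised. The difference between WT1-intermediate and WT1-negative cells over all probes then moved to a median of -0.44. Under that scaling 10 members were called higher and 10 lower. Of all 20573 probes, 10966 were called, 2531 higher and the other 76.9% lower. Manf, Derl3 and Atf6 passed the detection filter although no array of 1 group detected them (WT1-negative for Manf and Derl3, WT1-high for Atf6). Manf, one of those counted as higher, passed only through the groups where it is high and so could not have been found lower. Of the 28 members detected on all 9 arrays, 14 were called higher and 4 lower in WT1-high cells, and 13 and 4 in WT1-intermediate cells. Over all probes detected on all arrays, 7970 were called in WT1-high cells, 3370 higher and the other 57.7% lower. In WT1-intermediate cells 7716 were called, 3071 higher and the other 60.2% lower.

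**Figure D1:**
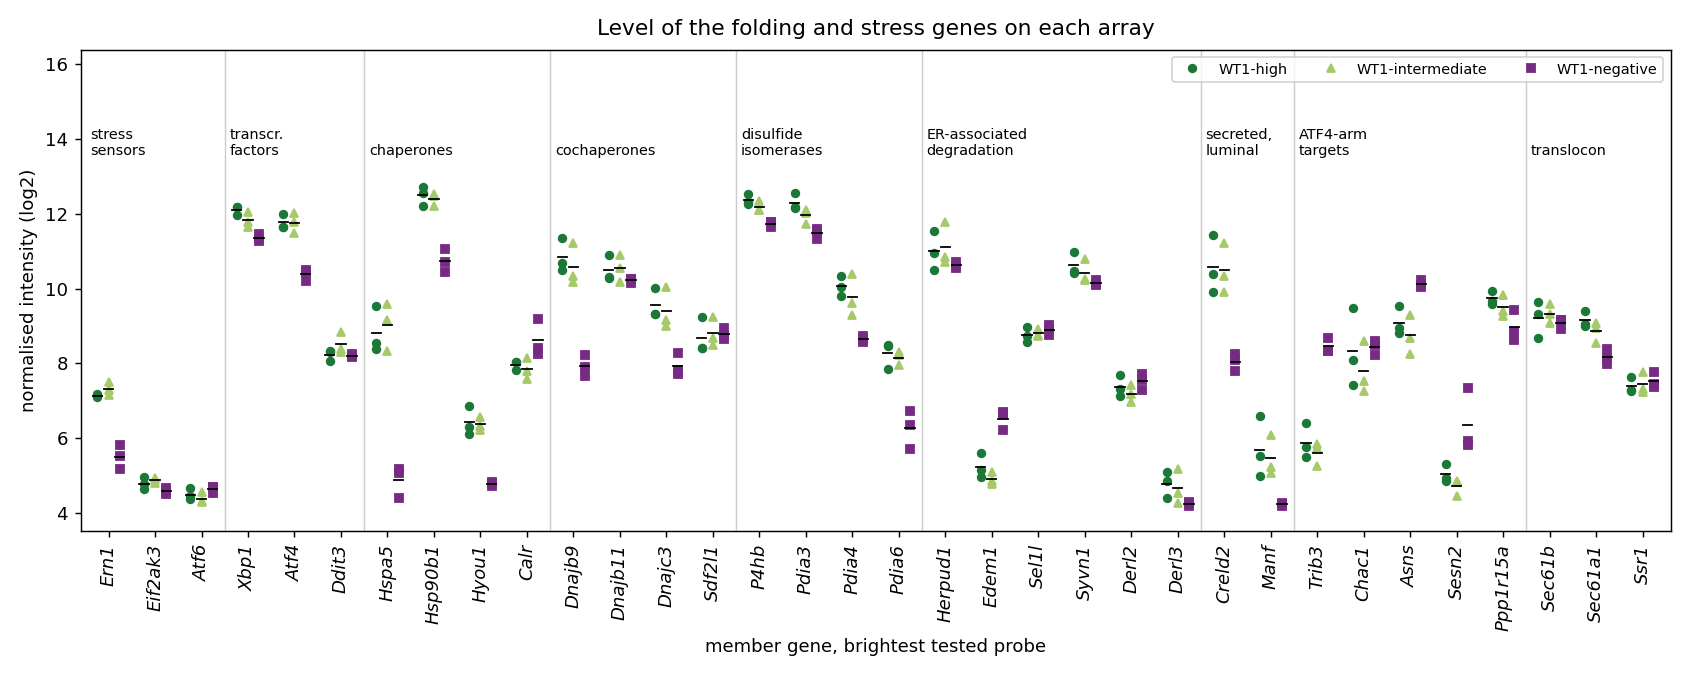
Normalised log2 intensity of the brightest tested probe of 34 member genes on each array, with genes grouped by role along the horizontal axis, 3 points per group and a bar at each group mean. Chaperones such as Hspa5 (4.40 to 5.16 in WT1-negative cells, 8.32 to 9.57 in the others) and Creld2 lie higher in both WT1-positive groups, and Trib3 and Asns lie lower; levels of different genes come from different probes and are not comparable.

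**Figure D2:**
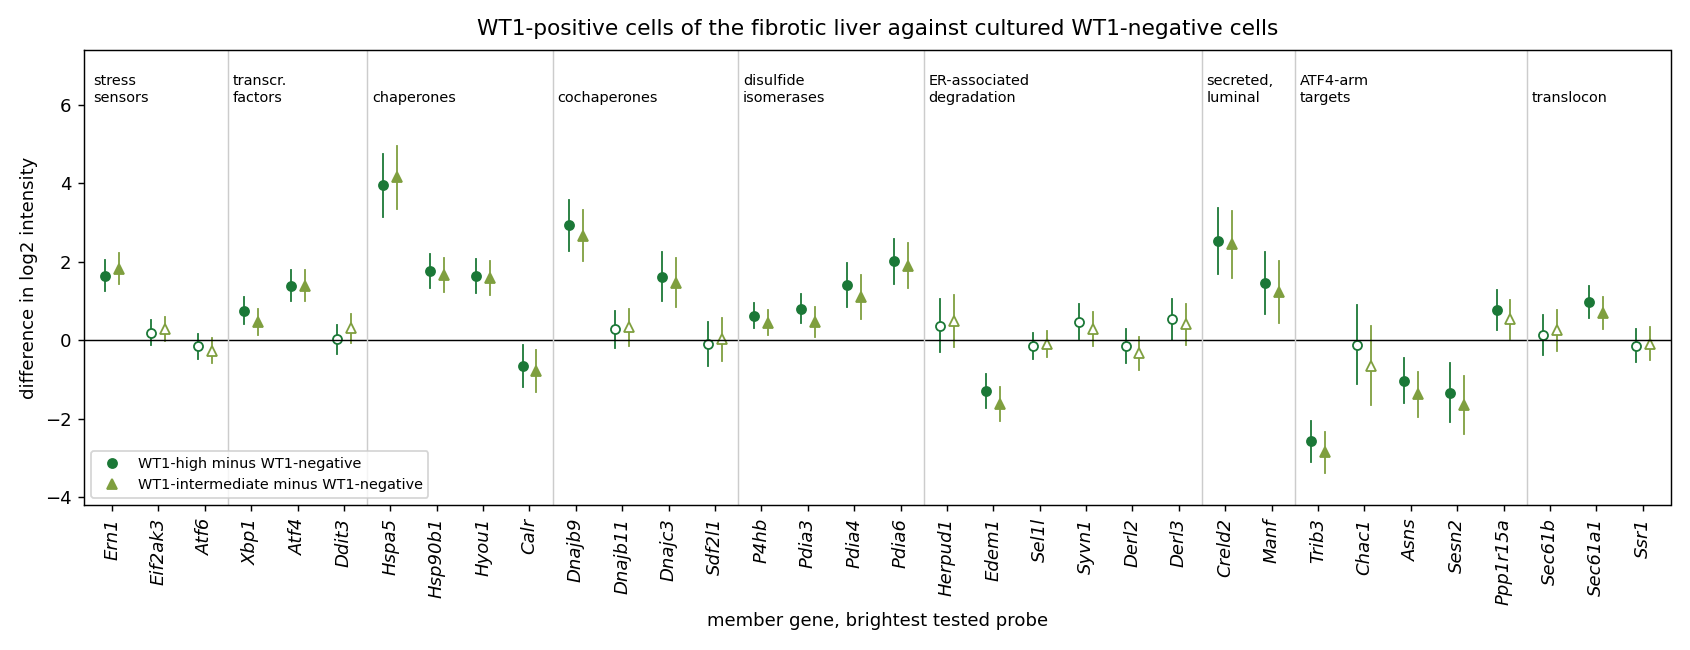
Difference in log2 intensity between each WT1-positive group and WT1-negative cells for 34 member genes, with 95% confidence intervals of the limma fit; filled symbols mark an adjusted p under 0.05. Isomerases rose in both comparisons (0.45 to 2.01), and of the ATF4-arm targets Trib3, Asns and Sesn2 fell (-2.85 to -1.03).

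Of the stress sensors, Ern1 rose. Its log2 levels were 7.18, 7.10 and 7.12 in WT1-high, 7.50, 7.29 and 7.15 in WT1-intermediate and 5.81, 5.16 and 5.51 in WT1-negative cells. Both WT1-positive groups lay above every culture array, by 1.64 ± 0.18 (SE, adjusted p = 1.43e-05, 3.12-fold) in WT1-high cells and by 1.82 ± 0.18 (adjusted p = 7.96e-06, 3.53-fold) in WT1-intermediate cells. In the values that follow, the first difference of a pair is WT1-high and the second WT1-intermediate against WT1-negative cells, on the log2 scale, and errors are SE of the fit. The other 2 probes of Ern1 were not detected on enough arrays to be tested. Eif2ak3 lay near background, between 4.50 and 4.95 on all arrays, and differed from WT1-negative cells by 0.20 (adjusted p = 0.25) and 0.29 (adjusted p = 0.10). Atf6 lay between 4.28 and 4.70 and was detected on 3 arrays in all, none of them WT1-high. Its level there is only an upper bound, and its differences of -0.15 (adjusted p = 0.39) and -0.26 (adjusted p = 0.15) did not pass.

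Among the transcription factors, Xbp1 and Atf4 rose and Ddit3 did not pass the test. Xbp1 gave 11.96, 12.20 and 12.19 in WT1-high, 11.65, 11.78 and 12.05 in WT1-intermediate and 11.33, 11.47 and 11.28 in WT1-negative cells. The culture arrays were the lowest without overlap. The differences were 0.76 ± 0.15 (adjusted p = 0.0014) and 0.47 ± 0.15 (adjusted p = 0.022), the second of which became -0.09 when arrays were scaled to a common median and lost its call without WT1-intermediate 30 (adjusted p = 0.089), WT1-negative 3 (0.067) or WT1-negative 14 (0.086). The array measures total Xbp1 transcript and does not separate the spliced form. Atf4 gave 11.66, 11.64 and 12.00, then 11.78, 11.50 and 12.03, and in WT1-negative cells 10.49, 10.20 and 10.45. Every liver array exceeded every culture array, and the difference was 1.39 ± 0.18 in both comparisons (adjusted p = 5.03e-05 and 5.90e-05). Ddit3, which encodes the pro-apoptotic factor CHOP, gave 8.29, 8.07 and 8.32, then 8.29, 8.38 and 8.85, and in culture 8.19, 8.18 and 8.25, with differences of 0.02 (adjusted p = 0.92) and 0.30 (adjusted p = 0.15).

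The chaperones showed the largest rise of any member. Hspa5 encodes BiP, the main Hsp70 of the ER and the protein that holds the sensors inactive. Its log2 levels were 8.38, 8.54 and 9.54 in WT1-high, 9.17, 8.32 and 9.57 in WT1-intermediate and 5.16, 4.40 and 5.07 in WT1-negative cells. WT1-negative cells were so close to background that the probe was detected on 2 of their 3 arrays, and no array of another group came near them. The differences were 3.94 ± 0.36 (15.4-fold, adjusted p = 4.06e-06) and 4.14 ± 0.36 (17.7-fold, adjusted p = 3.44e-06). This gene has 1 probe on the array, so no second probe could be set beside it. Where this probe lies in the transcript was not checked.

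Hsp90b1, the ER form of Hsp90 (GRP94), gave 12.22, 12.72 and 12.56 in WT1-high, 12.21, 12.52 and 12.47 in WT1-intermediate and 11.06, 10.44 and 10.72 in WT1-negative cells. The rise was 1.76 ± 0.20 (adjusted p = 1.75e-05) and 1.66 ± 0.20 (adjusted p = 3.27e-05). Hyou1, a nucleotide exchange factor for BiP, gave 6.30, 6.11 and 6.85, then 6.21, 6.33 and 6.57, and in culture 4.81, 4.82 and 4.71. Its liver arrays were again all above its culture arrays, by 1.64 ± 0.19 (adjusted p = 2.74e-05) and 1.59 ± 0.19 (adjusted p = 4.15e-05). The culture levels of Hyou1 lay near background, though detected on all 3 arrays, which limits the size of the difference.

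Calr went the other way. It encodes calreticulin, which binds glycoproteins and stores calcium, and its promoter printed above holds the same element as that of Hspa5. Its levels were 7.82, 8.02 and 8.04 in WT1-high, 7.79, 7.57 and 8.15 in WT1-intermediate and 8.24, 9.18 and 8.41 in WT1-negative cells. The groups did not overlap, but the gap between the closest arrays was small and WT1-negative 11 stood above the other two. The differences were -0.65 ± 0.24 (adjusted p = 0.036) and -0.78 ± 0.24 (adjusted p = 0.016). Without WT1-negative 11 they were -0.36 (adjusted p = 0.14) and -0.49 (adjusted p = 0.060), and the first also lost its call without any 1 of WT1-high 1, 8 or 29 (adjusted p = 0.098, 0.062 and 0.054), the second without WT1-intermediate 8 (0.062). Canx, the membrane-bound relative of calreticulin, lay between 4.19 and 4.57 and was not tested.

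Of the cochaperones, which pass clients to BiP, Dnajb9 and Dnajc3 rose. Dnajb9 (ERdj4), a target of spliced XBP1, gave 10.68, 10.51 and 11.35 in WT1-high, 10.33, 10.18 and 11.23 in WT1-intermediate and 8.22, 7.65 and 7.90 in WT1-negative cells. Every liver array exceeded every culture array, and the differences were 2.92 ± 0.30 (7.59-fold, adjusted p = 8.17e-06) and 2.66 ± 0.30 (adjusted p = 2.05e-05). A second probe gave 3.93 and 3.73. Dnajc3 (p58IPK, which also restrains eIF2 kinases) gave 9.33, 9.32 and 10.01, then 8.99, 9.17 and 10.04, and in culture 7.71, 7.82 and 8.28. It rose by 1.62 ± 0.29 (adjusted p = 5.42e-04) and 1.47 ± 0.29 (adjusted p = 0.0011), with no overlap. Dnajb11 (ERdj3) differed by 0.28 (adjusted p = 0.27) and 0.33 (adjusted p = 0.21), with all 9 arrays between 10.14 and 10.90. Sdf2l1, which acts with it, gave 8.40, 8.41 and 9.24, then 8.68, 8.49 and 9.24, and in culture 8.64, 8.95 and 8.74. The groups overlapped, with differences of -0.09 (adjusted p = 0.76) and 0.02 (adjusted p = 0.94).

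All 4 protein disulfide isomerases, which make and reshuffle disulfide bonds, rose in both comparisons. Pdia6 gave 7.85, 8.49 and 8.48 in WT1-high, 7.94, 8.30 and 8.22 in WT1-intermediate and 6.72, 5.70 and 6.36 in WT1-negative cells. Its liver levels lay above all culture levels, by 2.01 ± 0.26 (4.04-fold, adjusted p = 5.22e-05) and 1.90 ± 0.26 (adjusted p = 9.28e-05). Pdia4 gave 9.81, 10.04 and 10.35, then 9.28, 9.61 and 10.40, and in culture 8.58, 8.74 and 8.66. The differences were 1.41 ± 0.25 (adjusted p = 6.05e-04) and 1.10 ± 0.25 (adjusted p = 0.0032), the second being 0.37 (adjusted p = 0.20) under median scaling.

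P4hb and Pdia3 changed less. P4hb is also the beta subunit of collagen prolyl 4-hydroxylase, and Pdia3 works with calreticulin and calnexin on glycoproteins. P4hb gave 12.26, 12.52 and 12.31, then 12.11, 12.10 and 12.33, and in culture 11.78, 11.65 and 11.77. It rose by 0.63 ± 0.14 (adjusted p = 0.0029) and 0.45 ± 0.14 (adjusted p = 0.019). Pdia3 gave 12.15, 12.57 and 12.18, then 11.72, 12.03 and 12.11, and in culture 11.55, 11.34 and 11.60, with differences of 0.81 ± 0.17 (adjusted p = 0.0018) and 0.46 ± 0.17 (adjusted p = 0.037). Culture arrays were the lowest in each gene. The rises in WT1-intermediate cells turned to -0.05 (P4hb) and -0.10 (Pdia3) under median scaling. That of P4hb lost its call without WT1-intermediate 30 (adjusted p = 0.073) or WT1-negative 11 (0.062), and that of Pdia3 without WT1-intermediate 8 (0.096), WT1-intermediate 30 (0.118) or any 1 of WT1-negative 3, 11 or 14 (0.068, 0.122 and 0.061).

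Of 6 genes of ER-associated degradation tested, 0 were called higher on the brightest probe and Edem1 fell. Other probes of Herpud1 and Sel1l rose in both comparisons and are described with the genes of several probes. Edem1 encodes a lectin-like factor that draws misfolded glycoproteins out of the folding cycle. It gave 4.97, 5.14 and 5.59 in WT1-high, 5.09, 4.76 and 4.86 in WT1-intermediate and 6.22, 6.63 and 6.69 in WT1-negative cells. All culture arrays were higher than all liver arrays, and the differences were -1.28 ± 0.20 (adjusted p = 2.02e-04) and -1.61 ± 0.20 (adjusted p = 4.25e-05). The liver levels of Edem1 lay near background, though detected on every liver array, which limits the size of the fall. Of its 3 probes 1 was tested, and the others were detected on no array. Herpud1, a membrane component of the degradation complex, gave 10.94, 10.50 and 11.55, then 10.85, 10.70 and 11.79, and in culture 10.54, 10.60 and 10.72. The groups overlapped (0.38, adjusted p = 0.30, and 0.49, adjusted p = 0.18).

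Syvn1, the ubiquitin ligase HRD1, gave 10.46, 10.43 and 10.99, then 10.23, 10.27 and 10.78, and in culture 10.22, 10.10 and 10.13. Its differences of 0.48 (adjusted p = 0.056) and 0.28 (adjusted p = 0.25) did not pass, though the first did without WT1-high 8 (0.048) or WT1-intermediate 30 (0.037) and with the random replicate block (0.035). Sel1l, the partner of HRD1, differed by -0.14 (adjusted p = 0.44) and -0.09 (adjusted p = 0.62) on its brightest probe. Derl2 and Derl3 encode derlins, channel-like proteins of the export step. Derl2 lay between 6.96 and 7.73 in all groups and differed by -0.14 (adjusted p = 0.54) and -0.33 (adjusted p = 0.16). Derl3 was detected on 2 arrays of each WT1-positive group and on no culture array. Against that background it was at least 1.13-fold (adjusted p = 0.072) and at least 1.03-fold (adjusted p = 0.16) higher, which did not pass, although the first did without WT1-high 1 (0.028), WT1-intermediate 8 (0.031) or WT1-intermediate 30 (0.050). Derl1 was at background on both of its probes.

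Creld2 and Manf, small proteins of the ER lumen that are released under stress, both rose. Creld2 gave 9.90, 10.39 and 11.43 in WT1-high, 9.90, 10.34 and 11.22 in WT1-intermediate and 8.25, 7.79 and 8.09 in WT1-negative cells. The spread within the liver groups was wide but stayed above all culture arrays, and the differences were 2.53 ± 0.39 (5.78-fold, adjusted p = 1.81e-04) and 2.45 ± 0.39 (adjusted p = 2.57e-04). A second probe gave 2.09 and 1.93. Manf gave 4.97, 5.51 and 6.59, then 5.24, 5.07 and 6.08, and in culture 4.19, 4.24 and 4.25, where it was detected on no array. All liver arrays lay above these values, and against the culture background the rise was at least 2.12-fold (adjusted p = 0.0048) and at least 1.81-fold (adjusted p = 0.013), the latter no longer called with an offset of 50 (adjusted p = 0.066), with no background correction (0.055) or with no filter (0.062). Manf passed the detection filter only through these liver arrays, so its call is no test of direction.

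Of the 5 targets of the ATF4 arm, 3 fell in both comparisons, while the brightest probe of Atf4 itself rose. Trib3, a pseudokinase induced by ATF4 and CHOP, gave 5.49, 5.75 and 6.39 in WT1-high, 5.24, 5.72 and 5.83 in WT1-intermediate and 8.34, 8.32 and 8.69 in WT1-negative cells. Every culture array was far above every liver array. The differences were -2.57 ± 0.24 (5.95-fold lower, adjusted p = 4.58e-06) and -2.85 ± 0.24 (7.22-fold lower, adjusted p = 2.60e-06), and its other 2 probes were lower as well. These were at background in liver cells, so that only bounds hold: ILMN_1244279, detected on no liver array, was at least 2.24-fold and at least 2.23-fold lower, and ILMN_1252762, detected on 1 WT1-high and on no WT1-intermediate array, was at least 2.94-fold lower in WT1-intermediate cells.

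Asns, asparagine synthetase, gave 8.80, 8.95 and 9.52, then 8.25, 8.68 and 9.30, and in culture 10.04, 10.09 and 10.23. All liver arrays were lower than all culture arrays, with differences of -1.03 ± 0.26 (adjusted p = 0.0052) and -1.38 ± 0.26 (adjusted p = 8.88e-04). Sesn2, which restrains mTORC1 signalling under amino acid shortage, gave 5.31, 4.86 and 4.92, then 4.83, 4.86 and 4.45, and in culture 5.82, 7.34 and 5.92. WT1-negative 11 was the highest by a wide margin, and the differences were -1.33 ± 0.34 (adjusted p = 0.0057) and -1.65 ± 0.34 (adjusted p = 0.0016). The liver levels of Sesn2 lay near background, with detection on 2 of 3 WT1-intermediate arrays, which limits the size of the fall.

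The remaining ATF4-arm members did not follow. Ppp1r15a encodes GADD34, the subunit that directs a phosphatase to eIF2 and so reverses the translational block. It gave 9.93, 9.60 and 9.68, then 9.26, 9.83 and 9.40, and in culture 8.62, 9.44 and 8.84. WT1-high cells were above WT1-negative cells by 0.77 ± 0.23 (adjusted p = 0.012, or 0.056 without WT1-negative 3 and 0.089 under median scaling). WT1-intermediate cells overlapped with them (0.53 ± 0.23, adjusted p = 0.063), but passed without WT1-intermediate 1 (0.046) or WT1-negative 11 (0.010). Chac1, an enzyme that breaks down glutathione, gave 8.08, 7.43 and 9.47, then 7.54, 7.25 and 8.60, and in culture 8.21, 8.50 and 8.60. Its differences of -0.11 (adjusted p = 0.85) and -0.64 (adjusted p = 0.25) lay inside its spread in liver cells. Without WT1-high 29 and WT1-intermediate 30 together they were -0.68 (adjusted p = 0.028) and -1.04 (adjusted p = 0.0039).

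Of the translocon genes, Sec61a1 rose. It encodes the channel itself and gave 9.04, 9.01 and 9.40 in WT1-high, 8.55, 9.07 and 8.94 in WT1-intermediate and 8.14, 8.38 and 7.98 in WT1-negative cells. No arrays overlapped between liver and culture, with differences of 0.98 ± 0.19 (adjusted p = 8.42e-04) and 0.69 ± 0.19 (adjusted p = 0.0081), the second turning to -0.06 under median scaling. Sec61b, the beta subunit, ranged from 8.68 to 9.65 over all arrays and differed by 0.14 (adjusted p = 0.63) and 0.25 (adjusted p = 0.37), and Ssr1, a subunit of the translocon-associated complex, by -0.13 (adjusted p = 0.56) and -0.09 (adjusted p = 0.70).

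Of the members, 10 had more than 1 tested probe. The probes differed in their call for 5 of these genes in WT1-high against WT1-negative cells and for 4 in WT1-intermediate against WT1-negative cells. The plain case is Sel1l. Its brightest probe (ILMN_1244431) gave 8.57 to 8.98 on liver arrays and 8.77 to 9.02 in culture, whereas ILMN_3137920 gave 7.27 to 8.29 and 5.40 to 5.95, a rise of 1.96 in each comparison (adjusted p = 1.09e-04 and 1.24e-04). Averaged over its 3 probes, Sel1l was called higher (0.50, adjusted p = 0.020, and 0.54, adjusted p = 0.014). Where these probes lie in the transcript was not checked.

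For Atf4, the brightest probe (ILMN_2642681) carried the rise, and ILMN_1223734 differed by 0.39 (adjusted p = 0.15) and 0.07 (adjusted p = 0.80). For Ddit3 and Herpud1 the second probe was called higher where the brightest was not. It differed by 0.64 (adjusted p = 0.023) and 1.05 (adjusted p = 0.0014) for Ddit3, and by 0.82 (adjusted p = 0.047) and 0.94 (adjusted p = 0.029) for Herpud1. Asns was called lower by 2 of 3 probes in WT1-high and by all 3 in WT1-intermediate cells. Degradation genes without a call on the brightest probe thus include Herpud1 and Sel1l, each with another probe that rose.

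**Figure D3:**
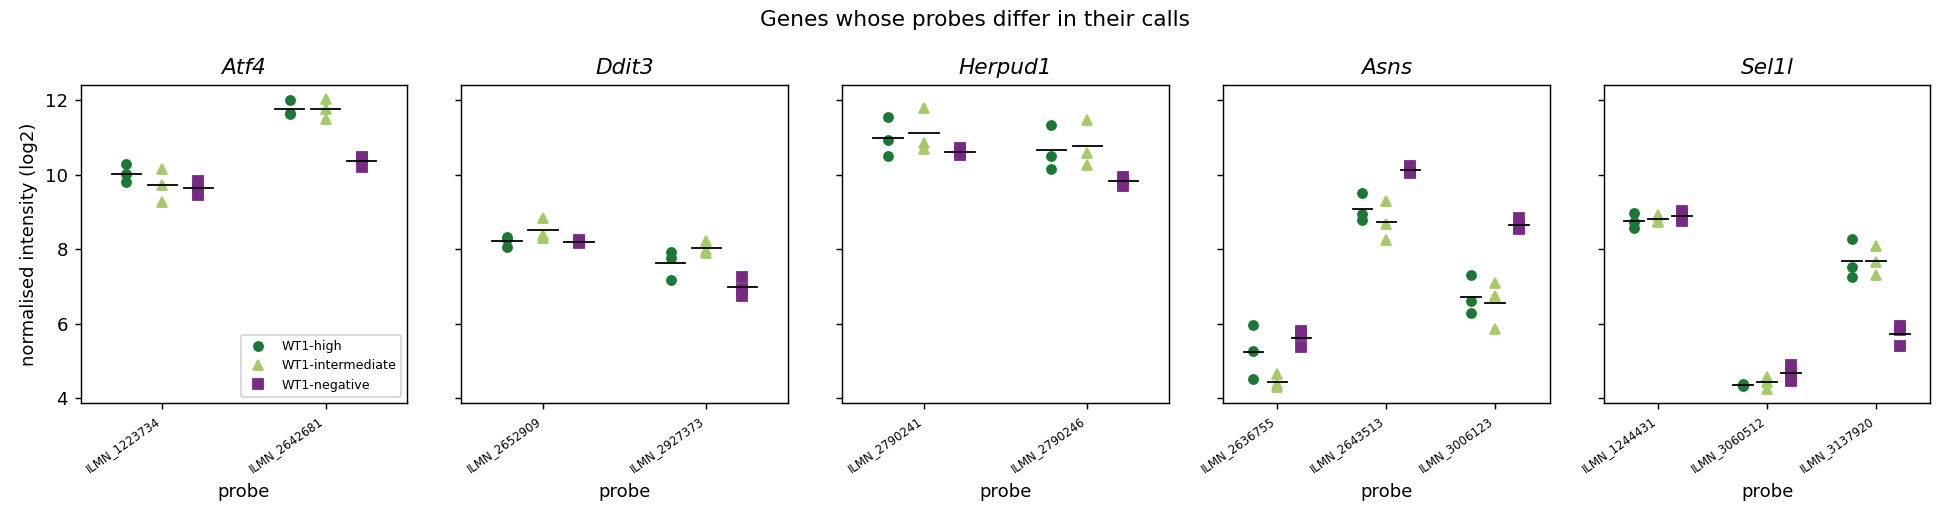
Normalised log2 intensity of every tested probe of the 5 member genes whose probes differ in their calls, by group (3 arrays each, bar at the mean). Sel1l shows no difference on ILMN_1244431 and a rise of 1.96 on ILMN_3137920, while the probes of Herpud1, Ddit3 and Atf4 differ in the size of the shift.

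Between WT1-high and WT1-intermediate cells, both taken from fibrotic liver, no member passed the test. Of 34 members, 0 were called higher or lower (limma), 0 reached an unadjusted p under 0.05, and the smallest adjusted p was 0.34 (Pdia3). Of all probes, 0.904% were called higher and 2.64% lower in WT1-high cells. The largest differences were 0.53 for Chac1 and -0.28 for Ddit3, and the median was 0.13 beside 0.05 over all probes. Pdia3 (12.15, 12.57 and 12.18 against 11.72, 12.03 and 12.11) and Sesn2 (5.31, 4.86 and 4.92 against 4.83, 4.86 and 4.45) were the 2 members whose arrays did not overlap, beside 20.1% of all probes. The 95% intervals stayed within 1 log2 unit for 31 of the 34 members, and reached from -0.999 to 1.54 over all of them, so differences of that size remain possible. Of 12 macrophage markers, 9 were lower in WT1-high cells, and their part in these values was not tested. All 5 ATF4-arm targets had positive differences (0.24 to 0.53), none past the test. So had 24 of the 34 members, among them all 4 disulfide isomerases (0.12 to 0.35), and 10 members had negative ones. Median scaling moved the median of all probes to 0.45 in this comparison. It called 11 members higher, beside 2510 of all 20573 probes. Relative to the median of all probes the members stood at 0.20 under that scaling, and at 0.08 in the reported fit.

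Within the liver groups the members varied together by array. On WT1-high 29 the level was the highest of its group for 26 of 34 members and the lowest for none, and on WT1-intermediate 30 it was the highest for 24. Over all probes these arrays were the highest for 33.3% and 30.5%. The median member on WT1-high 29 stood 0.45 above the mean of the other 2 arrays, and on WT1-intermediate 30 it stood 0.36 above, beside -0.03 over all probes on each. In WT1-negative cells the 3 arrays were the highest for 12, 9 and 13 members. On WT1-high 29, 38.1% of gene probes were detected, beside 43.7% and 42.8% on WT1-high 1 and 8. On WT1-intermediate 30 the share was 38.8%, beside 42.9% and 40.9% on WT1-intermediate 1 and 8. The mean signal of WT1-intermediate 30 was the lowest of any array. WT1-negative 3, 11 and 14 had 38.7%, 40.9% and 38.6%. The part of array quality in the excess of members on WT1-high 29 and WT1-intermediate 30 was not tested.

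The excess differed between members. On WT1-high 29 and WT1-intermediate 30 in turn, Chac1 stood 1.71 and 1.20 above the other arrays of its group, Creld2 1.29 and 1.10, Manf 1.34 and 0.93, Hspa5 1.08 and 0.83, Herpud1 0.83 and 1.01, and Dnajb9 0.76 and 0.98. In 21 members both arrays were the highest of their groups, and 11 exceeded the others by more than 0.5 on both. Sesn2 (-0.17 and -0.40) and Ppp1r15a (-0.08 and -0.14) lay below the other arrays on both. Disulfide isomerases showed less of it (medians of 0.11 and 0.23) and the stress sensors none that both arrays shared (0.25 and -0.12).

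The deposited column of WT1-intermediate 30 carries the number 29, and with 3 animals for 6 arrays the pair would share an animal. Their deviations from the group means correlated by 0.47 across probes, which are not independent. Deviations cancel out within a group, so this value also depends on those of the other pairs. Other lists moved on the same arrays. Tested hepatocyte markers stood 0.94 and 1.33 above the mean of the other arrays at the median, T and NK cell markers 0.59 and 0.50, and immediate early genes -0.42 and -0.18. The mean level of the hepatocyte list was 6.88 on WT1-high 29, 7.00 on WT1-high 8 and 5.92 on WT1-high 1, so WT1-high 29 was not the highest there. The part of these lists in the pattern was not tested. Without both arrays, an alternative added after the data were seen, 16 members were called higher and 6 lower in WT1-high, and 13 higher and 6 lower in WT1-intermediate cells against WT1-negative cells. Xbp1, P4hb and Pdia3 then lost their call in WT1-intermediate cells (adjusted p = 0.095, 0.076 and 0.12), and Chac1 and Derl3 gained one there (adjusted p = 0.0039 and 0.040).

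**Figure D4:**
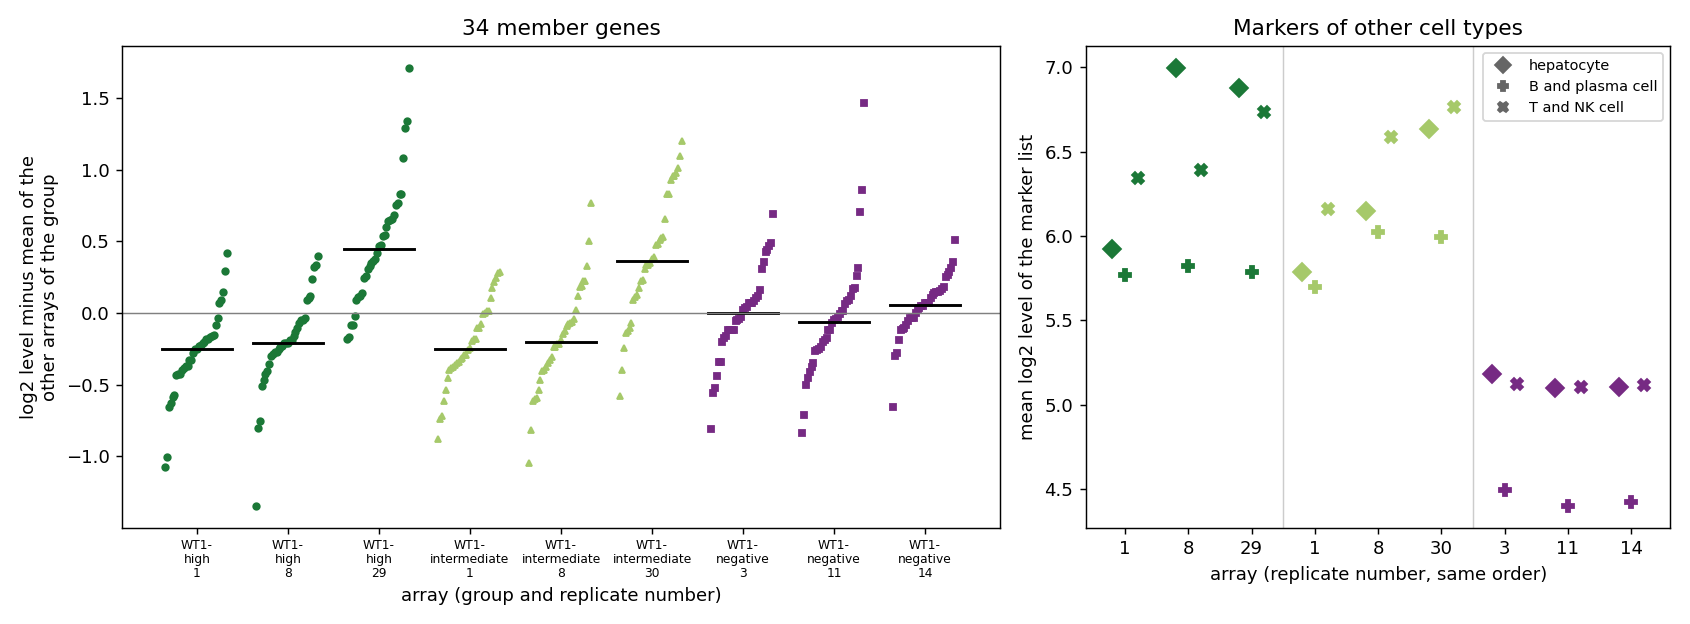
Left, log2 level of each of 34 member genes on 1 array minus the mean of the other 2 arrays of its group (a point per gene, sorted, bar at the median); right, mean log2 level of marker lists of hepatocytes, B and plasma cells and T and NK cells on the same arrays. WT1-high 29 and WT1-intermediate 30 lie above their groups at the median (0.45 and 0.36), and the marker lists lie higher on the 6 liver arrays than on the 3 culture arrays.

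Beyond the members, 85 of 96 further genes of the pathway were tested. Against WT1-negative cells, 25 (29.4%) were higher and 21 (24.7%) lower in WT1-high cells, where 26.5% of all probes were higher and 33.1% lower. In WT1-intermediate cells 21 (24.7%) were higher and 23 (27.1%) lower, beside 24.4% and 33.6% of all probes. These shares are near or below those of all probes, and the lists below are described by their counts alone. Between WT1-high and WT1-intermediate cells 0 were called (limma). The fits with a replicate block called Creb3l2 and, with the random block, also Slc7a11, the cystine transporter (-0.70, adjusted p = 0.030). Of 14 other ER oxidoreductases and prolyl isomerases, 8 (57.1%) were higher and 2 lower in WT1-high cells. Fkbp7, a prolyl isomerase of the ER, rose by 3.58 ± 0.28 (adjusted p = 1.24e-06), and Erp29, a chaperone with an isomerase-like fold, fell by 1.09 on the log2 scale (adjusted p = 1.12e-04). Of 19 genes for translocation, signal peptide cleavage and glycosylation, 7 (36.8%) were higher and 0 lower in WT1-high cells. The signal peptidase subunit Spcs2 was detected on no culture array, and the excess of WT1-high cells over that background was at least 3.00-fold (adjusted p = 2.61e-05).

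Of 20 other ATF4-arm targets tested, 3 were higher and 11 (55%) lower in each comparison, 10 of them lower in both, with median differences of -0.94 and -0.80. Mthfd2, a mitochondrial enzyme of folate metabolism, fell by 3.54 (adjusted p = 2.56e-06) and 2.92 (adjusted p = 1.30e-05) on the log2 scale. Atf3, a stress factor that is also an immediate early gene, rose by 2.63 ± 0.21 (adjusted p = 1.55e-06) and 2.66 (adjusted p = 1.79e-06).

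The eIF2 kinases and phosphatase subunits gave 1 higher and 2 lower of 4 in WT1-high cells. Ppp1r15b, the constitutive partner of the eIF2 phosphatase, rose by 0.68 ± 0.19 (adjusted p = 0.0093) on its brightest probe and was at least 3.56-fold higher on another that no culture array detected (adjusted p = 2.85e-06), and Eif2ak2, the kinase activated by double-stranded RNA, fell by 0.99 (adjusted p = 0.0084). Among other sensors and their proteases, Creb3l2, an ATF6-like factor that serves secretory capacity, rose by 1.05 ± 0.21 (adjusted p = 0.0011) in WT1-high cells and gave 0.35 (adjusted p = 0.16) in WT1-intermediate cells, a difference of 0.70 between these groups (adjusted p = 0.097). With the replicate number as a block that difference passed (adjusted p = 0.032 with the random and 0.041 with the fixed block), as it did without WT1-intermediate 30 (0.049). Mbtps2, a protease that releases ATF6, was detected on no liver array and was at least 1.44-fold lower in WT1-high than in WT1-negative cells (adjusted p = 6.16e-04).

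Of 10 other degradation genes, 2 were higher and 1 lower in WT1-high cells. Ube2j1, the conjugating enzyme of the ER membrane, rose by 2.41 ± 0.21 (adjusted p = 2.65e-06) and the ubiquitin ligase Rnf5 fell by 1.43 (adjusted p = 6.51e-05). Export from the ER was mixed, with 3 of 12 genes of the COPII coat and KDEL receptors higher and 4 lower. Sec24d, a coat subunit, rose by 2.17 ± 0.23 (adjusted p = 1.09e-05), and Sar1b, the GTPase that starts the coat, fell by 1.14 (adjusted p = 5.95e-05).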

How the data were processed

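Transcripts of aHSCs from WT1GFP/+ mice were measured on 9 bead arrays, 3 per group as labelled. Cells were purified by density centrifugation and sorted into lysis buffer, per the study's methods. The deposited values were BeadStudio intensities per probe, neither background corrected nor normalised by the authors, each with a deposited detection p-value and bead number. The joined table of the series repeats these intensities (largest difference 0) and was not used. The column headed 29 among the GFP-low arrays was taken as WT1-intermediate 30, whose values in the joined table it equals.

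Intensities were corrected with the 936 negative controls (offset 16), quantile normalised and log2 transformed with limma 3.58.1 in R 4.3.3, after the study's outline. The 20573 probes detected (p under 0.05) on 3 or more arrays were kept. A probe that no culture array, or no liver array, detected was kept only through the other arrays, so its call is no test of direction. The limma model held 3 group means over the 9 arrays, with 6 residual degrees of freedom and 5.19 from the prior, and p-values were adjusted by Benjamini-Hochberg over all probes. An adjusted p under 0.05 is a call. Errors are SE of the fit. The steps were run on simulated data with independent noise and shifts planted in few probes of WT1-high cells alone. Differences against WT1-negative cells were far more widespread here, so that run does not test the normalisation under them. The number of arrays limits precision.

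Named genes were all members and, of each further pathway list, the called genes with the largest rise and the largest fall in WT1-high against WT1-negative cells. Members and lists were chosen with earlier results of these data known. Of the further pathway genes, 3 were not matched on the array. Promoters came from RefSeq (GRCm38.p6). The liver arrays came from 3 animals, and their numbers pair them. Deviations from group means correlated by 0.35 for the arrays numbered 1, 0.34 for those numbered 8 and 0.47 for 29 with 30, against -0.39 to 0.03 for the other 6 pairs. Deviations cancel out over the arrays of a group, so these values depend on one another. The value for 29 with 30 is therefore no separate sign of a shared animal. The reported fit has no block; the study's methods name a linear model and state no block. Alternatives covered normalisation, background, offset, filter, arrays in the fit, weights, replicate blocks, probe averaging and leaving out arrays. Comparisons of WT1-positive with WT1-negative cells share their culture arrays.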

Additional observations from a re-analysis of the deposited data

How the results depend on the processing

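Across 21 alternatives, 19 of the 21 members called in WT1-high against WT1-negative cells stayed called in each alternative that tested them, all but Calr and Ppp1r15a, and 13 of the 20 called in WT1-intermediate against WT1-negative cells did so. Leaving out 1 array at a time gave 20 to 23 calls (15 to 18 higher, 4 to 5 lower) for WT1-high, 17 to 21 (12 to 16 higher, 4 to 5 lower) for WT1-intermediate and 0 between the WT1-positive groups. Median differences were then 0.34 to 0.61, 0.35 to 0.49 and -0.01 to 0.23. Median scaling changed the comparisons that involve WT1-intermediate cells, and the cause was not tested. In WT1-high against WT1-negative cells it gave 19 calls and a median of 0.53, beside 9555 calls over all probes. It called 11 members, all 11 higher, in WT1-high against WT1-intermediate cells (median 0.65). Over all probes 2631 were called there, 2510 of them higher. In WT1-intermediate against WT1-negative cells it gave 10 lower calls and a median of -0.11, beside 10966 calls over all probes, 2531 of them higher. In that last comparison Xbp1 (-0.088, adjusted p = 0.71), P4hb (-0.047, 0.85), Pdia3 (-0.096, 0.74) and Sec61a1 (-0.056, 0.87) changed sign and lost their call. Sdf2l1, not called in the reported fit, was called lower (-0.73, adjusted p = 0.016). Further pathway genes that changed sign, with a call in at least 1 of the fits, were Atf6b (-0.57), Ppib (-0.086), Fkbp2 (-0.26), Sec63 (-0.63), Ddost (-0.12), Stt3b (-0.038) and Sec16a (-0.17). Averaging the probes of a gene changed the sign of Sel1l (0.50 for WT1-high, 0.54 for WT1-intermediate) and Aup1 (-0.75 for WT1-intermediate), neither of them called in the reported fit. Further pathway genes, of which 0 were called between the WT1-positive groups, gave 29 there under median scaling, 2 and 1 with the random and the fixed replicate block and 0 to 2 without 1 array. Of 2149 member values under alternatives, 71 changed sign with no call on either side. Over all probes, 730 were called between the WT1-positive groups, with 324 to 2631 under alternatives, and at most 13698 and at least 7970 in WT1-high against WT1-negative cells, where 12258 were reported. In WT1-intermediate against WT1-negative cells, 11935 were reported, with 7716 to 12649 under alternatives.

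With replicate numbers as a random block, 22 members were called for WT1-high (17 higher) and 20 for WT1-intermediate against WT1-negative cells, and 0 between the WT1-positive groups. The fixed block over the 6 liver arrays, which took 29 and 30 as 1 animal rather than by replicate number, also gave 0. The same pairing in the random block, chosen after seeing the data, gave 22, 20 and 0. Leaving both arrays out, likewise chosen later, gave 22, 19 and 0. The block changed the call of Syvn1 alone among the members, which then passed for WT1-high (adjusted p = 0.035), and those of Creb3l2 and Slc7a11 among the further pathway genes between the WT1-positive groups. No slide was named in the headers, so a slide block was not run. Members near background (Eif2ak3, Atf6, Derl3, Canx, Derl1) have little room to show a fall.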
